A study of Equus caballus with 2 samples.

Results

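MicroRNA (miRNA) loci were described in the sperm transcriptome of 2 normal fertile stallions. A sequence tag is a stretch of the horse genome covered by clustered reads, and a tag was taken as a miRNA tag when its chromosome, start and end equalled a location given for a miRNA in the study's list. Of the 19257 deposited tags, 64 were miRNA tags, and these carried 82 miRNA names. The study assigned tags to genes with a window that reached beyond the gene on both sides. By its account only a minority of the 82 miRNAs aligned completely with a known miRNA gene. A miRNA name here is thus the study's assignment, and the tag may lie beside the miRNA gene. Fresh ejaculates were purified from somatic cells and immature sperm by density gradient centrifugation, and total RNA of each stallion gave 1 sequencing library. The stallions formed 1 group with no treatment, and their ages and breeds are not given in the sources used here. The cDNA was made with random hexamers, fragmented and size-selected, and the methods describe no step that selects small RNAs. The deposited data hold 1 value per tag, the average coverage (AC), and not 1 for each stallion. Values of the separate stallions, which a supplement of the study holds for part of the tags, were used only to find what the deposited value is. In all 12 miRNA tags that could be compared, the deposited AC equalled the higher of the pair within 0.6%. The same held for all 3029 tags of the whole set that could be compared. Where this holds, the AC of a tag may rest on 1 stallion, and a ratio between tags may set 1 stallion against the other. AC is therefore given here with no replicate error and no test, the depth behind a value is unknown, and all comparisons are descriptions. All positions refer to the horse assembly EcuCab2. Markers of somatic cells were not checked in the tags, which carry no gene names, and the study's PCR check of sperm RNA with the leukocyte gene PTPRC was not analysed here. The tag that the study places at protamine 1 (PRM1), the main packaging protein of sperm chromatin, lay at chr13:33206208-33207592 and had AC of 1730.

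miRNAs are short RNAs cut from a hairpin precursor. One arm of the hairpin is loaded into an Argonaute protein, and the bases near its 5′ end, the seed, pair with target mRNAs and lower their translation or stability. Members of a family share a seed, and many miRNA genes lie in clusters or in introns of host genes. In the male germ line the miR-34 and miR-449 family is known for its abundance in meiotic and postmeiotic cells, and let-7 miRNAs are known as repressors of growth genes in many tissues.

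The tags of the MIR34 and MIR449 family are printed first, because a run of bases was common to members on different chromosomes. The MIR34B tag lay at chr7:20101184-20101217, the MIR34C tag at chr7:20101727-20101755 and the MIR449A tag at chr21:17151964-17151989. A further tag at chr7:20101149-20101176, not among the listed miRNAs, lay 7 bases before the MIR34B tag. The deposited sequences follow, with the 9 bases common to 3 of the tags in capitals.
Tag before MIR34B: gtaGGCAGTGTAattagctgattgtact
MIR34B: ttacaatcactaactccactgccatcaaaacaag
MIR34C: ctaGGCAGTGTAgttagctgattgctaat
MIR449A: ttGGCAGTGTAttgttagctggttga
Without gaps, 22 of 28 bases of the tag before MIR34B equalled those of the MIR34C tag, and the longest run common to both was 11 bases (TAGGCAGTGTA). The listed MIR34B tag did not hold the run of 9 bases on either strand. Its longest run in common with MIR449A was 8 bases (CACTGCCA, opposite strand), and with MIR34C it was 7 bases.

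The let-7 tags are printed because 3 of them, on 3 chromosomes, held the same 10 bases, in capitals here. MIRLET7A-2 lay at chr28:42016390-42016416, MIRLET7G at chr16:35442185-35442216, MIRLET7D at chr23:54148872-54148896 and MIRLET7F at chr23:54160461-54160485. MIRLET7D is shown as the reverse complement and the others as deposited.
MIRLET7A-2: gtGAGGTAGTAGgttgtatagtttggg
MIRLET7G: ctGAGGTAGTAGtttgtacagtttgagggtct
MIRLET7D: GAGGTAGTAGgttgcatagttttag
MIRLET7F: tgtgatactctctcccccgccccct
Of 27 aligned bases, 23 were identical between MIRLET7G and MIRLET7A-2. MIRLET7D matched MIRLET7A-2 at 22 of 25 bases, 14 of them consecutive, and MIRLET7G at 21 of 25 bases. The MIRLET7F tag shared at most 4 consecutive bases with each of these 3 tags.

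The MIR15 and MIR16 genes lie in pairs at separate loci, and the tags of both pairs are shown because they began alike. The tag listed for MIR15B and MIR16 lay at chr5:15685191-15685222 and the tag listed for MIR15A and MIR16-2 at chr17:21138922-21138948. The shared run of 9 bases is in capitals.
MIR15B and MIR16: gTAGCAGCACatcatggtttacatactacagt
MIR15A and MIR16-2: tTAGCAGCACgtaaatattggcgttaa
Beyond the run these tags differed, and 15 of 27 aligned bases were identical.

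The runs were taken from the tags printed here, so their presence in these is given, and the counts show which other tags held them. The let-7 run was found on either strand in 3 of the 8398 tags of 24 to 34 bp (0.0357%), and these were the 3 let-7 tags above. The run of the MIR34 and MIR449 family was found in 4 of the 8398 tags (0.0476%), namely MIR34C, MIR449A, the tag before MIR34B and a tag at chr5:6436787-6436811 with AC of 13.5. The MIR15 and MIR16 run was found in 3 tags (0.0357%), both tags above and a tag at chr1:25693815-25693841 with AC of 172. Over tags of any length, 7 held the let-7 run, 11 the MIR34 and MIR449 run and 15 the MIR15 and MIR16 run. These last tags on ECA5 and ECA1 are shown as reverse complements.
Tag on ECA5: tgctGGCAGTGTAtgtgatagtatt
Tag on ECA1: ggTAGCAGCACttggaaagagagaaaa
The sequence of a tag is that of the genome at its location, so a shared run describes where a tag lies and not how its RNA was made. The file gives no strand for the RNA.

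Families here were groups of related names, and shared seeds were not checked. The MIR17 cluster was grouped with the MIR25 cluster, and MIR10 with MIR99 and MIR125. Among the 42 miRNA tags shorter than 50 bp, 14 pairs belonged to the same family, and 5 of these 14 shared a run of at least 9 bases. Of the 847 pairs from different families, 6 did (0.708%). The median longest run was 6.5 bases within families and 5.0 bases between them. The longest run between families was 11 bases (TCCTCTTTCCT), common to the MIR490 and MIR330 tags, of which every base and 95.3% of the bases, respectively, were soft-masked as repeats. The 5 family pairs were the 3 let-7 pairs, MIR34C with MIR449A, and the MIR15 and MIR16 tags. When longer tags were included, no run within the MIR10, MIR99 and MIR125 family was longer than 6 bases. MIR30C and MIR30E shared 5 bases, MIR103 and MIR107A 7, MIR132 and MIR212 7, MIR1905A and MIR1905C 7, and the MIR17 and MIR25 cluster tags 5.

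**Figure D1:**
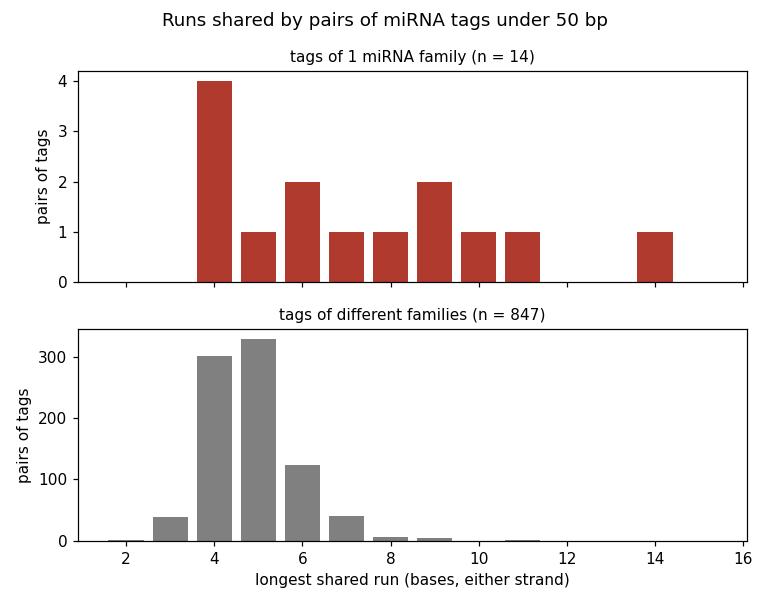
Number of pairs of miRNA tags under 50 bp (y axis) by the longest run of bases they share on either strand (x axis, bases), for 14 pairs of 1 family and 847 pairs of different families. Of the family pairs 5 reached 9 bases or more, up to 14, and 6 of the other pairs did, up to 11.

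The MIR34 and MIR449 family had the second-highest miRNA tag. MIR34B, 34 bp long, had AC of 337 and stood at rank 531 of all tags. MIR449A had AC of 81.8 and MIR34C had 21.3. The study's list prints another, higher value for the MIR34C tag than the deposited one, so the comparisons with MIR34C rest on the deposited value. By the deposited values MIR34B was 15.8 times as high as MIR34C, which lay 509 bases away, and 4.12 times as high as MIR449A. The tag 7 bases before MIR34B had AC of 20.4, and MIR34B was 16.5 times as high. By deposited AC the tags on both sides were thus at similar levels, both lower than the listed MIR34B tag between them. RefSeq (assembly TB-T2T) was used for gene names, neighbours and lengths, and not to place the tags in genes. In RefSeq both MIR34B and MIR34C lie within HOATZ, a gene of motile cilia and sperm flagella, next to BTG4. MIR449A lies within CDC20B, next to MCIDAS, a regulator of multiciliated cells.

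The tag before MIR34B and the MIR34B tag could pair with each other as the arms of a hairpin would. With RNAduplex, 20 base pairs were predicted on the reverse strand (-28.70 kcal/mol) and 19 on the deposited strand (-24.90 kcal/mol). Neighbouring tags of this kind were uncommon, since only 9 pairs of tags under 50 bp lay within 60 bases of each other. Of these 9 pairs, the MIR34B pair was the only one with a miRNA tag, and 4 reached 20 or more predicted base pairs, up to 22. A pair on ECA21 reached -40.70 kcal/mol and a pair on ECA25 -30.10 kcal/mol, both lower than the MIR34B pair. The remaining pairs had higher energies than the MIR34B pair. The AC of the tags in the 8 other pairs differed by 1.00 to 3.65 times, against 16.5 times at MIR34B.

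The let-7 tags spanned less than the MIR34 and MIR449 family. MIRLET7D had AC of 18.4, MIRLET7G 17.4, MIRLET7A-2 14.9 and MIRLET7F 10.5. The tag shared by MIR99B, MIR125A and MIRLET7E on ECA10 had AC of 15.4. The ratio of MIRLET7D to MIRLET7F, which lay 11564 bases apart on ECA23, was 1.76. The median AC of all 19257 tags was 14.6, and 4 of the let-7 tags lay at percentiles 50.9 to 61.3 of all tags, while MIRLET7F lay at percentile 25.8.

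The tags of the MIR15 and MIR16 pairs differed by 2.15 times, with AC of 70.8 on ECA5 and 33.0 on ECA17. RefSeq places MIR15B and MIR16 within SMC4, a condensin subunit, on another chromosome than the tag, and MIR15A and MIR16-2 within a long non-coding RNA. Of the 79 names that matched a RefSeq gene, 4 were on a chromosome other than that of their tag (MIR15B, MIR16, MIR1302B-2 and MIR492-2).

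The MIR17-92 cluster and its paralog at MCM7, a subunit of the replicative helicase, are known promoters of proliferation. A tag of 25 bp at chr17:61793042-61793066 had AC of 16.1. The study lists it under all 6 names of the first cluster (MIR17, MIR18A, MIR19A, MIR92A, MIR20A and MIR19B). A second tag of 25 bp at chr17:61793158-61793182, 91 bases further on and not listed, had AC of 8.64. The tag listed for MIR25, MIR93 and MIR106B at chr13:8034494-8034522 had AC of 55.2, or 3.43 times that of the MIR17 tag. These sequences are shown because each of the listed tags carries several miRNA names although it is far shorter than a precursor. Which miRNA each of these tags covers was not checked, since miRNA sequences of the horse were not used.
MIR17 cluster: ctgtgcaaatccatgcaaaactgac
Second tag on ECA17: gtattgcacttgtcccggcctgttg
MIR25, MIR93 and MIR106B: aatcacactacctgcacgaacagcacttt

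In all, 11 tags carried several names, 29 of the 82. Besides those given above they were MIR764, MIR1264 and MIR1912 (AC of 73.5, 29 bp, ECAX) and MIR492-1 and MIR492-2 (21.0, 27 bp, ECA11). A further tag, with AC of 19.0, was that of MIR374A and MIR545 (24 bp, ECAX). RefSeq places MIR764, MIR1264 and MIR1912 within the serotonin receptor gene HTR2C. MIR29A and MIR29B, known repressors of collagen genes, shared a tag of 24 bp on ECA4 with AC of 15. MIR220B and MIR220B-2 shared a tag of 27 bp on ECA20 with AC of 9.85, and MIR192 and MIR194 a tag of 103 bp on ECA12 with AC of 8.94. The median precursor gene in RefSeq was 71.0 bp long. A precursor to compare with was found for 10 of the 11 tags. Of these 10 tags, 8 were shorter than every precursor listed for them, and 9 were shorter than their precursors together. Which of its listed miRNAs such a tag covers was not checked, so its AC was not divided among them.

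**Figure D2:**
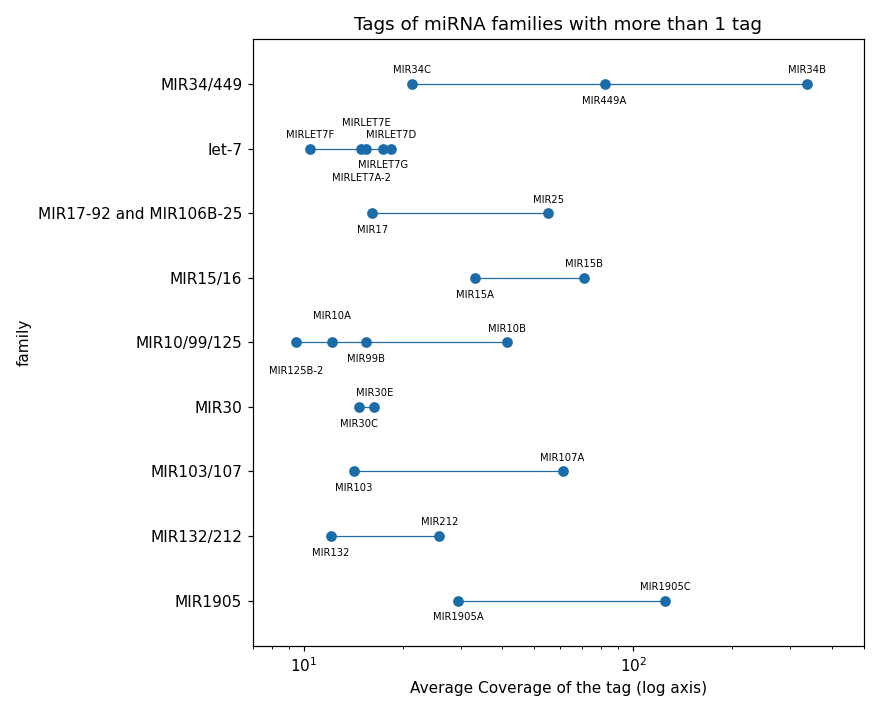
AC of the tags (x axis, log scale) in each miRNA family with more than 1 tag (y axis); each point is 1 tag and a line joins a family, and a tag with several names is shown by 1 of them. By the deposited AC (for MIR34C the study's list prints another value), MIR34B at 337 was 15.8 times as high as MIR34C, while the let-7 tags lay between 10.5 and 18.4.

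The 64 tags had AC of 6.73 to 537, and their median was 16.3 between quartiles of 12.2 and 33.5. For all 19257 tags the median was 14.6 and the quartiles were 10.4 and 28.2. AC was at least 100, the study's limit for very high expression, in 5 of the 64 tags (7.81%) and in 8.30% of all tags. AC was over 10 and under 100 in 48 tags (75.0%), against 69.7% of all tags. Both shares were near those of the whole set. The study set these limits on the sum of AC values, while here they were applied to the deposited AC. The shares over all tags given here thus differ from those of the study's own classes. MIR34C was not among the 5 by its deposited AC, from which the study's list differs. AC was under 10 in 11 tags, 10 to 20 in 27, 20 to 50 in 14 and 50 to 100 in 7.

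**Figure D3:**
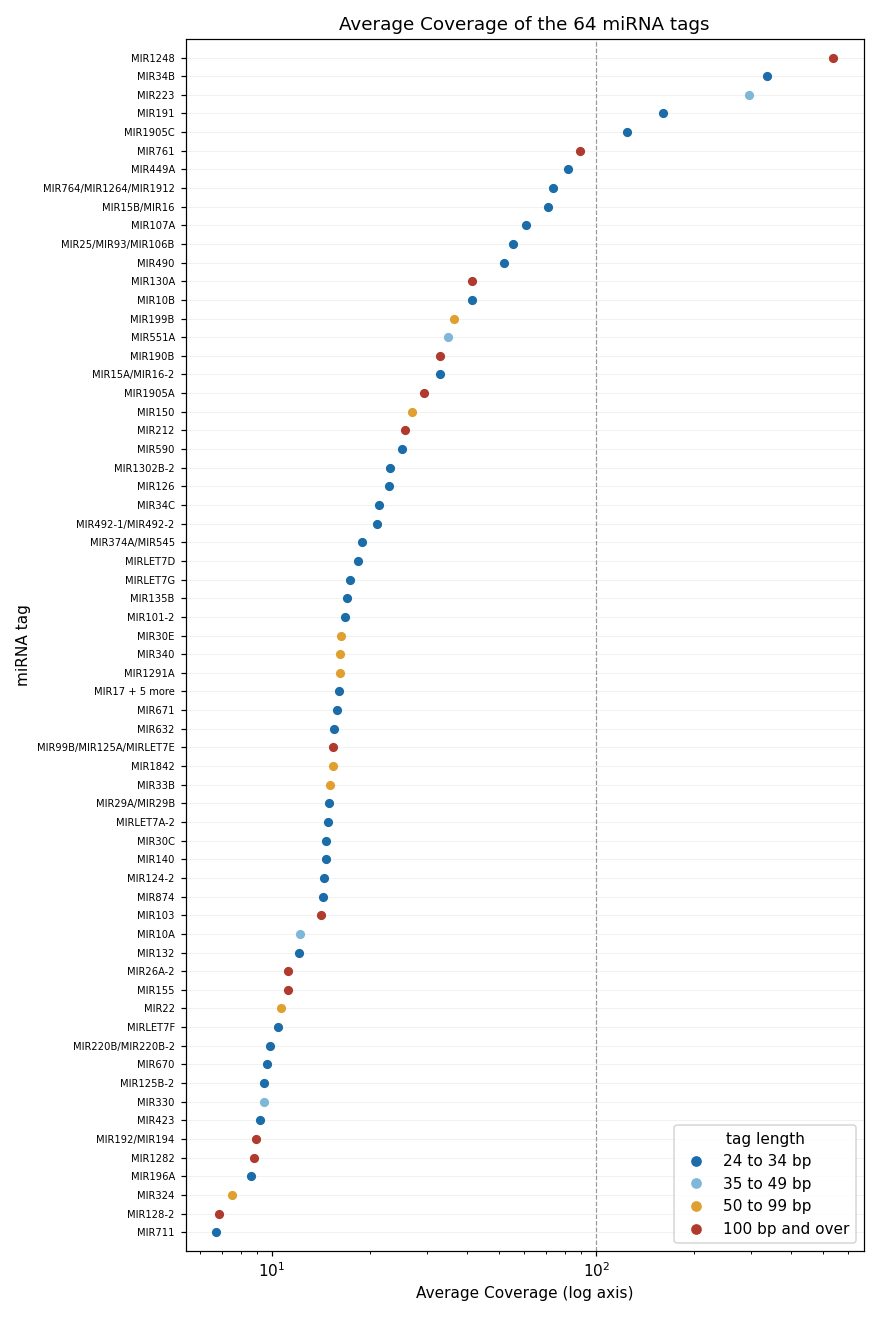
AC of each of the 64 miRNA tags (x axis, log scale), ordered from highest to lowest (y axis) and coloured by tag length; the dashed line marks AC of 100. MIR1248, MIR34B, MIR223, MIR191 and MIR1905C, from 537 to 124.9, were the 5 tags above the line by the deposited AC, and 27 tags lay between 10 and 20.

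MIR1248 had the highest AC, 537, at rank 334 of all tags. Its tag, at chr19:24793832-24794009, was 178 bp long and is printed whole because it was the highest of the list and longer than a precursor.
MIR1248: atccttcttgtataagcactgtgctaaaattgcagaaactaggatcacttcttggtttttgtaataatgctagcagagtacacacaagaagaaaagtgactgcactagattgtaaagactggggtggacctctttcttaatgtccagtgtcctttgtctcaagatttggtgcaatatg
RefSeq places MIR1248 within EIF4A2, an RNA helicase of translation initiation, which also holds 3 small nucleolar RNA genes (LOC111769133, LOC111769135 and LOC111769146). None of them overlaps the RefSeq MIR1248 gene. The longer tag was not placed in genes, so whether it covers a small nucleolar RNA gene was not tested. Within 10 kb lay 5 other tags, 62 to 137 bp long, with AC of 6.80 to 63.6, all lower than the MIR1248 tag. MIR1248 was 8.44 times as high as the highest of them.

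MIR223, known as a miRNA of the myeloid blood lineage, had AC of 296. Its tag of 39 bp lay alone at chrX:48489279-48489317, 403152 bases from the nearest tag, and 53.8% of its bases were soft-masked. MIR191, a widely expressed miRNA that RefSeq places within DALRD3, had AC of 160.4 at chr16:38001162-38001193. Within 10 kb of it lay 5 tags with AC of 5.97 to 15.3, so that MIR191 was 10.5 times as high as the highest neighbour. MIR1905C, which RefSeq places within MEX3D, had AC of 124.9 at chr7:541073-541099, and no tag lay within 10 kb. The sequences of these tags with AC of at least 100 were as follows.
MIR223: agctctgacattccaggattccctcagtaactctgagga
MIR191: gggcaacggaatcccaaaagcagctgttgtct
MIR1905C: tcccgtctgcgcggccagcggaggcca
The MIR1905C tag was 4.26 times as high as that of MIR1905A, which had AC of 29.3 over 274 bp. RefSeq places MIR1905A within MEX3B, a gene related to MEX3D.

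The next of the 10 highest tags were MIR761 (88.9), MIR449A (81.8), the MIR764 tag (73.5), the MIR15B tag (70.8) and MIR107A (61.0). MIR107A lies within PANK3, and MIR103 within PANK2, both genes of coenzyme A synthesis. The MIR107A tag, 29 bp long, was 4.30 times as high as the MIR103 tag, which spanned 604 bp with AC of 14.2. The MIR761 tag was 324 bp long, and RefSeq places MIR761 within NRDC, a metalloprotease known for an acidic stretch. Of the 6 reading frames of its tag 2 were free of stop codons, and in one of these 54.6% of codons began with GA, the codons of the acidic residues. This was the third-highest share among the 848 tags of at least 200 bp with an open frame, whose median was 10.8%. This feature was examined after the sequence had been seen.

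The 5 lowest tags were MIR711 (6.73), MIR128-2 (6.85), MIR324 (7.50), MIR196A (8.61) and MIR1282 (8.78). They were 26 to 392 bp long, so low AC was not limited to 1 length. MIR711 lies within the collagen gene COL7A1, MIR128-2 within R3HDM1, MIR324 within ACADVL and MIR1282 within SERF2, and MIR196A lies in the HOXB cluster.

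The remaining tags of the families were low to moderate. In the HOX clusters, which pattern the body axis, MIR10B had AC of 41.4 on ECA18, where every base was soft-masked, and MIR10A had 12.2 on ECA11, a ratio of 3.40. MIR196A and MIR10A were neighbours on ECA11, 44165 bases apart, with no tag between them. MIR212 and MIR132, 12359 bases apart on ECA11, had 25.8 and 12.1. MIR30E had 16.4 and MIR30C 14.7, with 7783 bases between their tags, and RefSeq places both within NFYC. MIR26A-2 had 11.2, MIR124-2, a miRNA known from neurons, 14.5, and MIR125B-2 9.46.

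The 3 tags on ECAX spanned AC of 19.0 (MIR374A and MIR545), 73.5 (the MIR764 tag) and 296 (MIR223). Over all chromosomes, 26 held a miRNA tag and 9 of these held 1. ECA11 held 10, with AC of 7.50 to 25.8, among 1544 tags in all (0.648%). On ECAX 3 of 390 tags (0.769%) were miRNA tags. The share over all tags was 0.332%, and the highest shares were 1.07% on ECA23 (3 of 281 tags) and 0.985% on ECA26 (2 of 203 tags).

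Several of the listed miRNAs are known from other cell types than sperm. MIR223 (296) is known from myeloid cells, MIR150 (26.9) from lymphocytes, MIR126 (23.0) from endothelium and MIR155 (11.2) from activated immune cells. The values in brackets are AC of the tags listed for these miRNAs, and whether the tags hold the miRNAs was not checked. These miRNAs were chosen after the values had been seen. The MIR150 tag, 70 bp long, lay among 6 tags within 10 kb with AC of 9.70 to 31.6. The MIR126 tag was 25 bp long with every base soft-masked, and the MIR155 tag was 316 bp long with 45.3% of bases soft-masked. The sperm had been purified by a gradient that removes somatic cells, and whether RNA of these cell types contributed was not tested.

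The miRNA tags were shorter than the whole set. Of the 64 tags, 42 (65.6%) were under 50 bp, the length of a read, against 52.5% of all tags. There were 38 tags of 24 to 34 bp (59.4%), against 43.6% of all tags. Reads that did not align were shortened and tried again, and how the ends of a tag were set is not given in the sources used here. In this short class the median AC was 17.2 for 38 miRNA tags and 16 for all 8398 tags. It was 23.6 and 16.1 at 35 to 49 bp (4 miRNA tags), 16.2 and 12.7 at 50 to 99 bp (9 miRNA tags), and 15.4 and 13.7 at 100 bp and over (13 miRNA tags). The median AC of the miRNA tags was thus higher than that of all tags in each class, by less than the distance between the quartiles of all tags. The median GC content of the short class was 45.5%, against 40.7% for all tags of that length.

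**Figure D4:**
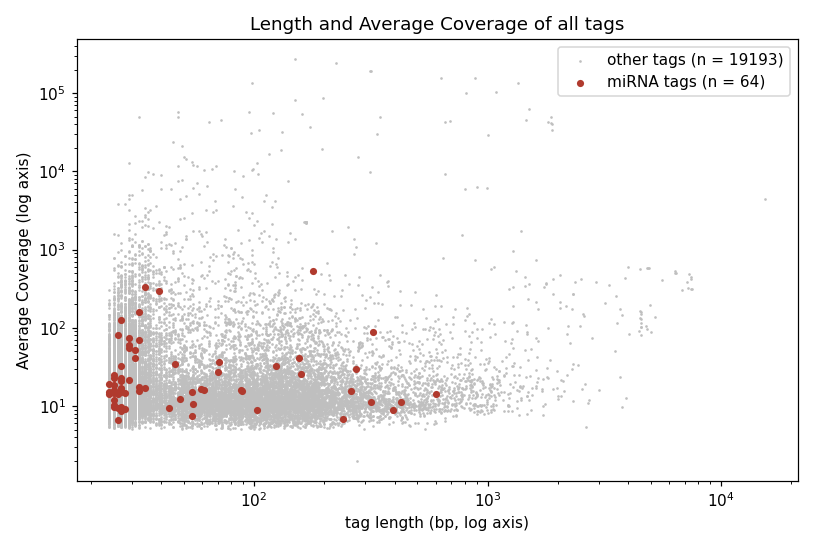
Length (x axis, bp, log scale) and AC (y axis, log scale) of the 64 miRNA tags (red) and the other 19193 tags (grey), each point 1 tag. The miRNA tags gathered at 24 to 34 bp, and MIR1248, of 178 bp, was the highest.

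Compared with the RefSeq precursors, 45 tags were shorter than every precursor of their names, 17 were longer and 2 had no precursor to compare with. The precursors were 56 to 134 bp long, apart from the MIR492-1 entry of 1914 bp. Each of the 13 tags of 100 bp and over was longer than any 1 precursor of its names, by 18 bp for MIR192 and MIR194. An open reading frame ran through the whole of 7 of them (53.8%), against 65.3% of all tags of that length. Of the 79 matched names, 55 lay within a protein-coding gene, 5 within a long non-coding RNA only and 19 within neither. Mature and precursor miRNA sequences of the horse were not used here, so the number of tags that hold their own miRNA is not given.

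Whether another tag lay nearby went with tag length. Within 10 kb another tag was found for 24 of the 64 miRNA tags (37.5%) and 42.1% of all tags. Among tags under 50 bp it was found for 8 of 42 (19.0%), against 14.7% of all such tags. Among tags of 50 bp and over it was found for 16 of 22 (72.7%), against 72.5%. Longer miRNA tags thus lay among other tags as often as longer tags in general did. MIR130A, 155 bp long with AC of 41.4, had 7 neighbours with AC of 8.68 to 37.1. MIR199B, which RefSeq places within the dynamin gene DNM1, had AC of 36.4. Its tag had 5 neighbours that reached 124.6, and 4 of the 5 were higher than the MIR199B tag.

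**Figure D5:**
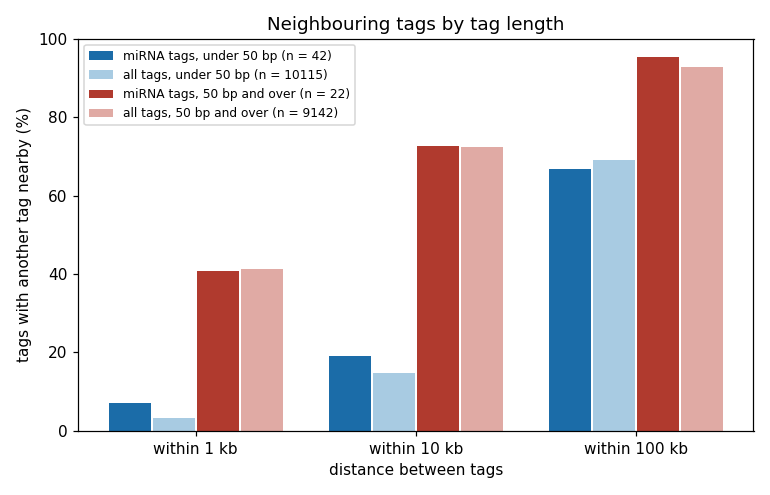
Share of tags (y axis, percent) with another tag within 1, 10 or 100 kb (x axis), for miRNA tags and all tags under 50 bp and of 50 bp and over. At 10 kb the bars stand at 19.0% and 14.7% for short tags and at 72.7% and 72.5% for longer ones.

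Repeat sequence was found in part of the list. Of the 64 tags, 16 (25%) had a soft-masked base, against 32.6% of all tags, and among those under 50 bp 11 of 42 (26.2%), against 39.4%. Every base was masked in 9 tags (14.1%), against 19.8% of all tags. These were MIR490, MIR10B, MIR590, MIR1302B-2, MIR126, MIR101-2, MIR26A-2, the MIR220B tag and MIR711, with AC of 6.73 to 52.1. RefSeq places MIR590 within EIF4H. The MIR590 tag, at chr13:11685265-11685289, is shown because its GC content was 96.0%.
MIR590: gaggcgggggcccggcgggcccgcg

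Similarity to another tag matters because reads with similar alignments at several places were removed, so a tag with a near copy may have lost reads. By BLAST, 11 of the 64 tags (17.2%) were similar to another tag over at least 24 bases, against 21.0% of all tags. MIR551A stood apart with 31 similar tags, while the 10 others had 1 or 2. The MIR551A tag, at chr2:46538535-46538580, is shown with a tag at chr8:91820145-91820181, and the 30 bases common to both are in capitals.
MIR551A: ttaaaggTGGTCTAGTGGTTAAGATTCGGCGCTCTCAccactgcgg
Tag on ECA8: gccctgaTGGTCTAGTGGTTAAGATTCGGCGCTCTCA
MIR551A had AC of 34.9, and 89.1% of its bases were soft-masked. The 31 similar tags lay on 20 chromosomes and had AC of 10.4 to 577.7 with a median of 64.6, and 15 of them had AC of at least 100. Because the shared run resembled a transfer RNA, a motif of transfer RNA genes, box B (GGTTCGANNCC), was searched on both strands after the sequence had been seen. Of the 8 similar tags of at least 60 bp, 6 held it, against 72 of all 8310 tags of that length (0.866%). The MIR551A tag itself, which is shorter, did not hold it.

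MIR125B-2 was the tag nearest to mitochondrial sequence. Its tag, at chr26:15554665-15554690, shared 20 consecutive bases, in capitals, with the long mitochondrial tag.
MIR125B-2: aCCTTTTACTTCTTTTAATCTcattc
The run lay at chrM:1902-1921 on the opposite strand, within a tag of 15387 bp with AC of 4390. It was also found in a tag at chr1:139013086-139014090 with AC of 28776, and 21 bases were shared with a tag at chr13:14098868-14098927 with AC of 23.6. MIR125B-2 itself had AC of 9.46. Among the other 63 miRNA tags the longest run in common with the mitochondrial tags was 15 bases, in MIR103, and the median over all 64 was 10 bases. Whether reads of these loci contributed to the MIR125B-2 tag was not tested.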

How the data were processed

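Sperm RNA of 2 stallions was sequenced on the SOLiD 4 platform as 50 bp single-end reads. With NovoalignCS the authors aligned the reads to EcuCab2. Reads that failed were trimmed 1 base at a time and retried, reads with similar alignments at several places were removed, and the EXP pipeline grouped alignments into tags and scaled both samples to the smaller one. The deposited signal is the average coverage (AC), 1 value per tag, with the genomic sequence. Shortened reads and removed multiple alignments may affect short tags and near copies.

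miRNA names and locations came from the study's list. Its values were not used. The members, families and lists were chosen with earlier results of these data known. Tags named in the text were those with AC of at least 100, the 10 highest, the 5 lowest, tags with several names, those on ECAX and those of fixed families, and all others are described as such where named. Tags were compared by longest common run on both strands (Python 3.11.15, numpy 2.4.6), by blastn 2.17.0 (E-value limit of 10, words of 11 bases, at least 80% identity over 24 bases and 50% of the tag) and with RNAduplex 2.7.2. Distances count the bases between tags. Names were matched by accession to RefSeq genes (assembly TB-T2T), for 79 of 82. Host genes named in the text are those of the RefSeq miRNA genes, and the tags were not placed in genes. No test was run, since the deposited data give 1 value per tag, and the study's values for separate stallions were not used as results. The reading of tags, distances and runs was tested on simulated data. The search of tags for miRNA sequences was not run.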

Additional observations from a re-analysis of the deposited data

How the results depend on the processing

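AC is given with no replicate error, and depth per tag is unknown. AC of 50 or more was reached by 12 miRNA tags and AC of 200 or more by 3, against 5 at 100 (5 also when names were counted). The median AC of 16.3 became 16.2 over names, over tags with 1 name and over tags with no soft-masked base, 15.8 for tags of at least 50 bp and 17.2 for shorter ones. With 42 tags under 50 bp, 38 were under 35 bp and 51 under 100 bp. Another tag lay within 10 kb for 24 tags, within 1 kb for 12 and within 100 kb for 49. A soft-masked base was found in 16 tags and masking of every base in 9. Similarity to another tag, found for 11, fell to 3 at 90% identity and to 2 when at least 90% of the tag had to align. Of 14 family pairs, 5 shared 9 bases, 6 shared 8 and 3 shared 10 (chosen after seeing the data), against 12 and 1 of 847 other pairs at 8 and 10 bases. Leaving out a stallion was not run because the deposited data give 1 value per tag, and values of separate stallions from the study's supplement were not used as results. The counts of tags holding miRNA sequence, and their alternatives, were not run because those sequences were not used here. No paired analysis was possible because there was 1 group.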
